A study of Homo sapiens with 8 samples.

Results

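The nuclear genes for subunits of the mitochondrial respiratory chain were followed in a pair of prostate lines, BPH-1 and WPMY-1, after Pao extract or vehicle. A gene was taken as a member when its single annotated symbol named a subunit of complex I (*NDUFA*, *NDUFB*, *NDUFC*, *NDUFS* or *NDUFV* with a number), complex II (*SDHA* to *SDHD*), complex III (*UQCR*) or complex IV (*COX4* to *COX8*), with pseudogenes and antisense genes left out. This gave 56 members of 22465 genes measured, of which 31 belong to complex I, 3 to complex II, 7 to complex III and 15 to complex IV. BPH-1 (BPH1 in the labels) is an established human line of prostate epithelium, and WPMY-1 is an established human line of prostate myofibroblasts. Pao extract (PAO in the labels) is prepared from the bark of the tree Geissospermum vellosii and was given at 250 μg/ml. Total RNA was profiled on Affymetrix human transcriptome arrays in 4 groups, namely vehicle-treated BPH-1, Pao-treated BPH-1, vehicle-treated WPMY-1 and Pao-treated WPMY-1 cells, with 2 arrays in each. The labels and the paper's figure legend give 48 h of treatment and the paper's methods give a shorter time, so the time is uncertain. BPH-1 cells were kept in RPMI1640 and WPMY-1 cells in DMEM, so line and medium cannot be told apart in a comparison of the lines. Nothing in the labels or methods ties the 2 arrays of a group to separate cultures, so a p-value here reflects the spread between arrays, which may be technical.

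The respiratory chain passes electrons from NADH and succinate to oxygen and pumps protons across the inner mitochondrial membrane. Complex I takes electrons from NADH and complex II, which is also an enzyme of the citric acid cycle, takes them from succinate. Complex III passes them from ubiquinol to cytochrome c, and complex IV hands them to oxygen. Most subunits are encoded in the nucleus, and a smaller set is encoded by mitochondrial DNA. Nuclear respiratory factor 1 (NRF1), ETS family factors, SP1 and YY1 are known activators of many of the nuclear genes.

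Promoter sequence was looked up in RefSeq (GRCh38.p14) as windows from 250 bases before to 50 bases after each annotated start, and 47 of the 56 members had a window. The NRF1 motif, whose matched letters are the capitals in the sequences that follow, was read on both strands and found in 12 of the 47 members (25.5%), against 9.7% of protein-coding genes and 7.0% of all genes with a window. The YY1 motif was found in 10.6% of the members and 2.2% of protein-coding genes, and the ETS motif CCGGAAGT in 12.8% and 7.0%. The SP1 motif GGGCGG was found in 57.4% of the members and in 64.3% of protein-coding genes. Matches to different motifs were counted separately also where they overlap, and a match is a description of the letters, not a bound site. The stretches of 250 bases upstream of the start are shown for *SDHA* (chr5:218070-218319, plus strand), *NDUFA9* (chr12:4648864-4649113, plus strand) and *NDUFA12* (chr12:95003698-95003947, minus strand). These are the members that differed between the lines and held a whole NRF1 match upstream of the start. Capitals mark the NRF1 matches, which begin 166, 117, 68 and 19 bases before the start of *SDHA*, 80 bases before that of *NDUFA9* and 116 bases before that of *NDUFA12*. The match of *NDUFA9* lies on the opposite strand.
SDHA: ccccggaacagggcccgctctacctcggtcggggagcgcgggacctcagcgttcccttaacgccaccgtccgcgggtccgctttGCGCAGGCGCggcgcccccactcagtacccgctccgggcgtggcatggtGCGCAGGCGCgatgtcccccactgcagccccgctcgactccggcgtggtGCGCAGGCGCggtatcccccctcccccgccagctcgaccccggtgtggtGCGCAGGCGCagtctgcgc
NDUFA9: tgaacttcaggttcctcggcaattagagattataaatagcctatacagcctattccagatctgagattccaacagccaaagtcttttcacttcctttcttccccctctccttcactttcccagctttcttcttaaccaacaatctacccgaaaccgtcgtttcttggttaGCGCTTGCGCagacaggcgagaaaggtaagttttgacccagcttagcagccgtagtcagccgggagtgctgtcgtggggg
NDUFA12: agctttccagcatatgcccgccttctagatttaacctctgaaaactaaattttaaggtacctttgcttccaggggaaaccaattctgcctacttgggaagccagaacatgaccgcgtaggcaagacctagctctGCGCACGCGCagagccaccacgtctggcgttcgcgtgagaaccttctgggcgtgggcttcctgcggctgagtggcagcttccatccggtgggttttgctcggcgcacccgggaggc
The *SDHA* window held 4 matches of the same letters at even spacing, and each of the others held 1. By complex, the motif was found in 6 of 28 members of complex I, 2 of 2 of complex II, 3 of 5 of complex III and 1 of 12 of complex IV.

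Values are log2 signals after RMA, given for repeat 1 and then repeat 2 of a group, and a difference is a difference of group means on the log2 scale. Signals of different genes come from different probes and were not compared with each other. The median log2 signal of the 56 members on an array ran from 7.39 to 7.66, while that of all genes ran from 5.62 to 5.79. *COX7B2* and *COX8C*, isoforms known from testis, and *NDUFB4*, an accessory subunit of complex I, lay near background on all arrays, that is, below 4.69, the highest array median of 13 leukocyte markers. The median of 14 measured epithelial markers was 9.02 to 9.11 in BPH-1 arrays and 5.21 to 5.61 in WPMY-1 arrays, and that of 14 stromal markers was 5.50 to 5.63 and 7.91 to 8.20, so the lines carried the markers of their labels. Repeat 2 was above repeat 1 for 38 members in vehicle-treated and 43 in Pao-treated WPMY-1 cells, and for 31 and 36 in BPH-1 cells. The members' median of repeat 2 minus repeat 1 was 0.06 and 0.1 in WPMY-1 and 0.01 and 0.03 in BPH-1 cells. For all genes it was 0.04 and 0.02 in WPMY-1 and 0.03 and 0.01 in BPH-1 cells. In these bulk samples, a change in the share of cells that carry an RNA and a change of its amount per cell cannot be told apart.

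Did Pao extract change the subunits in BPH-1 cells? None of the 56 members passed limma's test at an adjusted p of 0.05 in either direction, and neither did any of all genes tested (0%). At an unadjusted p of 0.05 there were 0 members, against 4.13% of all genes, and 0 members reached 1.4-fold, against 0.298% of all genes. The methods' t-test called 0 members after adjustment and 1 higher and 1 lower before it, where 5.15% of all genes were called. The median difference of the members was -0.03 (all genes -0.01), with 23 members above 0 and 33 below. For all 56 members the 95% interval of the difference stayed inside 1.4-fold in either direction (0.485 on the log2 scale), as it did for 94.3% of all genes, and the interval bounds ran from -0.42 to 0.46. The arrays of the 2 groups did not overlap for 19 members, or 33.9% of the members against 33.3% of all genes. Of these, 7 were higher and 12 lower with Pao extract, where all genes had 14.4% higher and 18.8% lower.

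Within complex I of BPH-1 cells the differences ran from -0.12 to 0.09. *NDUFA11*, an accessory subunit of the membrane arm, read 7.10 and 7.07 with vehicle and 6.93 and 7.0 with Pao extract. Both Pao arrays lay below both vehicle arrays, with a difference of -0.12 (95% interval -0.33 to 0.09). *NDUFA5*, an accessory subunit of the peripheral arm, read 6.14 and 6.08 with vehicle and 6.28 and 6.11 with Pao extract, a difference of 0.09 (-0.10 to 0.27), and its arrays overlapped. The 3 members of complex II lay between -0.05 (*SDHA*, the flavoprotein that oxidises succinate) and 0.06 (*SDHC*, a membrane anchor). In complex III the lowest value was that of *UQCR11*, a small subunit, which read 6.83 and 6.92 with vehicle and 6.57 and 6.82 with Pao extract, with no overlap. Its difference of -0.18 (-0.42 to 0.06) was the lowest of all members, and it was -0.05 without repeat 1 and -0.31 without repeat 2 of the Pao arrays. *UQCRB*, a subunit near the ubiquinone site, had the highest value of complex III at 0.02. In complex IV the highest value was 0.19 for *COX8C*, near background (0.36 without repeat 1 and 0.02 without repeat 2 of the Pao arrays), and the lowest was -0.12 for *COX4I2*, the isoform of subunit 4 known from lung.

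The subunits in WPMY-1 cells were tested in the same way. None of the 56 members passed limma's adjusted p, against 15 of all genes (0.0668%). At an unadjusted p of 0.05 there were 4 members, 2 higher and 2 lower, which is 7.14% of the members against 11.2% of all genes, and the methods' t-test gave 2 higher and 3 lower before adjustment (7.24% of all genes) and 0 after it. No member reached 1.4-fold, against 1.02% of all genes. The median difference of the members was -0.02 (all genes 0.03), and its sign was not stable. It was 0.02 after a further quantile normalization (all genes 0.02) and -0.07 after each array was centred on its median (all genes -0.02). All 56 intervals again stayed inside 1.4-fold in either direction, as did 89.5% of those of all genes, with bounds from -0.38 to 0.43. The arrays did not overlap for 18 members, or 32.1% of the members against 43.6% of all genes. Of these, 6 were higher and 12 lower, where all genes had 27% higher and 16.6% lower.

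*UQCRC2*, a core protein of complex III, was the lowest member in WPMY-1 cells when the brightest probe set of each gene was used. With the mean of all probe sets the lowest value of a member was -0.28. Among the members that fit alters *NDUFB2* alone, which has 2 probe sets and differed by -0.10 with its brightest. *UQCRC2* read 10.22 and 10.10 with vehicle and 9.96 and 9.96 with Pao extract, so that both Pao arrays lay below both vehicle arrays. The difference of *UQCRC2* was -0.20 (-0.37 to -0.04), with an adjusted p of 0.40 in limma, and it was -0.12 after a further quantile normalization. *COX6C*, a small subunit of complex IV, read 5.06 and 5.01 with vehicle and 4.88 and 4.85 with Pao extract, again with no overlap, a difference of -0.17 (-0.33 to -0.01; limma adjusted p = 0.44). *COX7A1*, the heart and muscle isoform of subunit 7a, had the highest difference, with 5.12 and 5.32 in vehicle arrays and 5.48 and 5.40 in Pao arrays. Both Pao arrays lay above both vehicle arrays, and the difference was 0.22 (0.00 to 0.43; limma adjusted p = 0.45). *NDUFA7*, an accessory subunit of complex I, read 7.94 and 7.97 with vehicle and 8.11 and 8.10 with Pao extract, a difference of 0.15 (0.01 to 0.29; limma adjusted p = 0.44).

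In the rest of complex I of WPMY-1 cells, *NDUFA2*, an accessory subunit of the peripheral arm, had the highest difference, 0.19 (-0.05 to 0.43), with 7.0 and 7.06 in vehicle arrays and 7.08 and 7.36 in Pao arrays. *NDUFA5* had the lowest, -0.16 (-0.34 to 0.03), with 6.62 and 6.55 in vehicle arrays and 6.48 and 6.38 in Pao arrays. Neither gene showed overlap between its groups. In complex II, *SDHA* read 8.31 and 8.46 with vehicle and 8.15 and 8.31 with Pao extract, a difference of -0.16 (-0.36 to 0.05), and *SDHC* had 0.06. *UQCR10*, a small subunit, had the highest difference of complex III, 0.08 (-0.14 to 0.30). The medians by complex in WPMY-1 cells were -0.02, -0.08, 0.02 and 0.04 for complexes I, II, III and IV, and those in BPH-1 cells were -0.03, -0.04, -0.04 and 0.02. In WPMY-1 cells the sign of the median changed under at least 1 of the scalings for complexes I (0.01 after quantile normalization), III (-0.03 after centring) and IV (-0.01 after centring). The median of all genes was 0.03 as deposited, 0.02 after quantile normalization and -0.02 after centring.

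**Figure D1:**
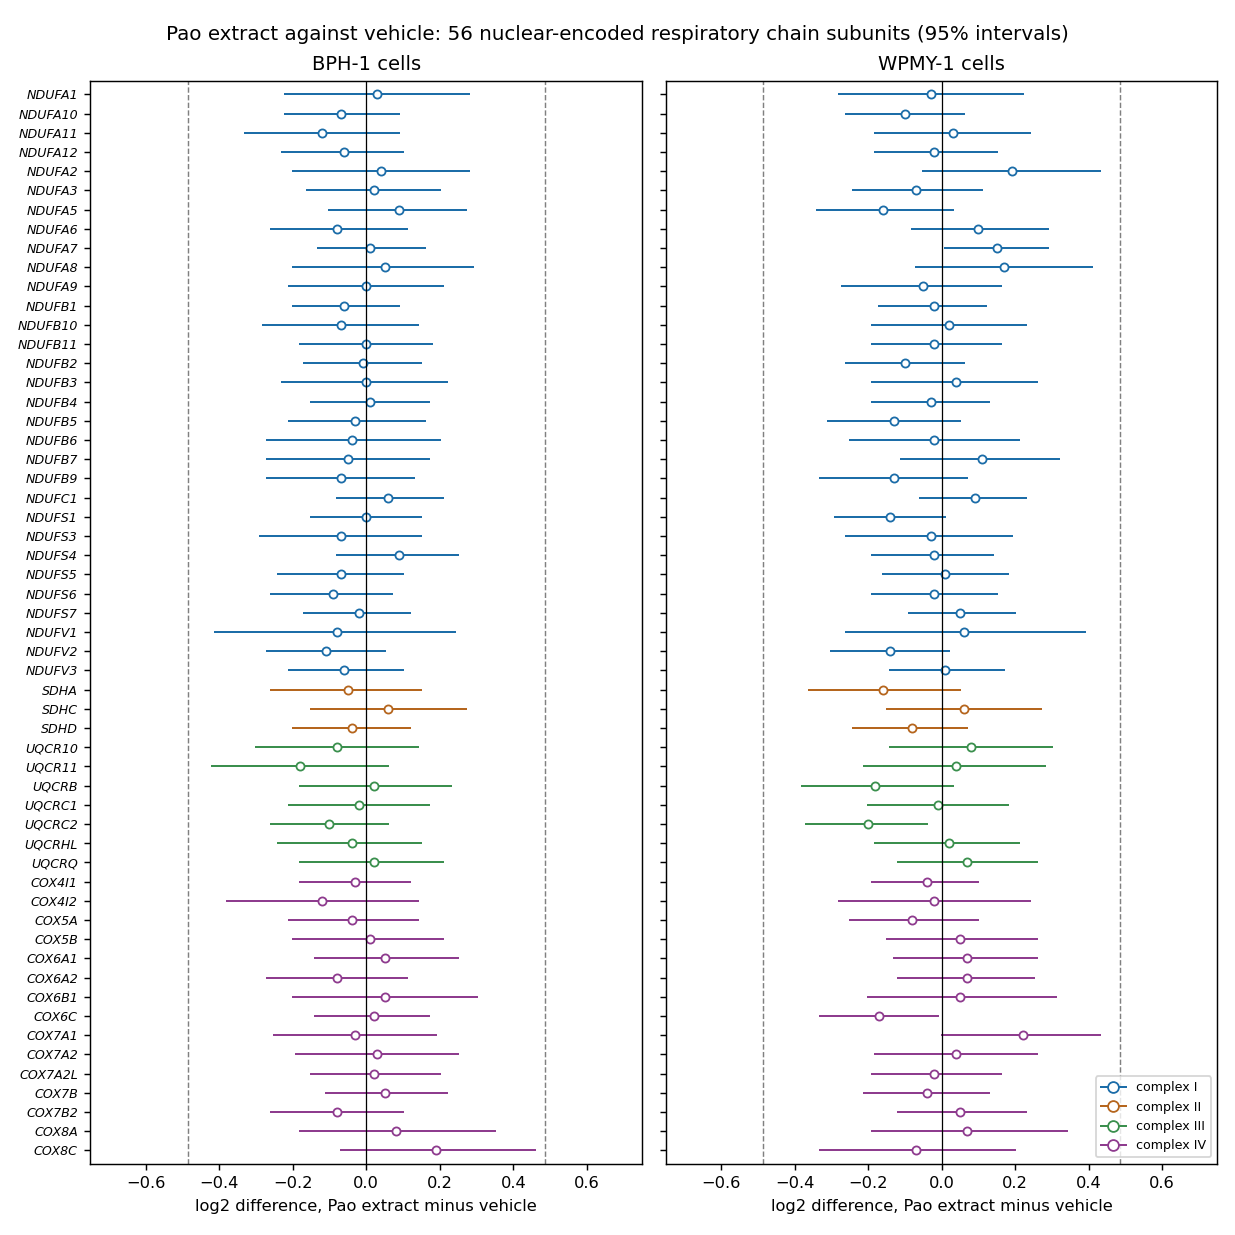
Log2 difference between Pao extract and vehicle for each of the 56 members in BPH-1 cells (left) and WPMY-1 cells (right), 2 arrays per group. Points are differences of group means, lines are 95% intervals from limma, open points did not pass the adjusted p, colours mark the complex, and dashed lines mark 1.4-fold in either direction. All intervals of both lines lie between the dashed lines.

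The effects of Pao extract in the lines were set against each other with an interaction contrast, WPMY-1 minus BPH-1. No member passed limma's adjusted p, nor did any of all genes (0%), and 0 members were past an unadjusted p of 0.05 against 7.13% of all genes. A difference of effects of 1.4-fold was reached by 0 members and 1.61% of all genes. The difference of effects ran from -0.26 for *COX8C*, near background, to 0.25 for *COX7A1* (-0.06 to 0.55). For *NDUFA5* it was -0.24 (-0.51 to 0.02), with an effect of 0.09 in BPH-1 and of -0.16 in WPMY-1, and limma's adjusted p was 0.69. The intervals were wider here, and 49 of the 56 (87.5%) stayed inside 1.4-fold in either direction, against 71.0% of those of all genes. For the other 7 members a 1.4-fold difference between the effects lay within the interval.

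The baseline of the lines was compared in the vehicle arrays, WPMY-1 minus BPH-1. Of the 56 members, 16 passed limma's adjusted p, 8 higher and 8 lower in WPMY-1 cells. This is 28.6% of the members, close to the 30.9% of all genes called (15.3% higher and 15.6% lower). When each array was centred on its median, which raised the median difference of all genes by 0.11, the split became 15 higher and 3 lower (83.3% of the calls higher, from 50%). Over all genes the share of calls that were higher moved from 49.6% to 67.3%. The median difference of the members was 0.03 as deposited and 0.14 after centring, with all genes at -0.02 and 0.08. At 1.4-fold, 5 members were higher and 1 lower, 10.7% against 16.9% of all genes (8.37% higher and 8.52% lower). The vehicle arrays of the lines did not overlap for 38 members (67.9%, all genes 62.9%). Of the 16 called members, 9 were called in all 13 alternative limma fits, namely *NDUFB6*, *NDUFS4*, *NDUFB9*, *NDUFS3*, *NDUFA5*, *NDUFS6*, *NDUFB1*, *UQCR10* and *COX4I1*, and all 16 kept their sign in these fits. The vehicle arrays also served as the controls of the Pao extract comparisons, so the baseline and those effects are not independent.

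**Figure D2:**
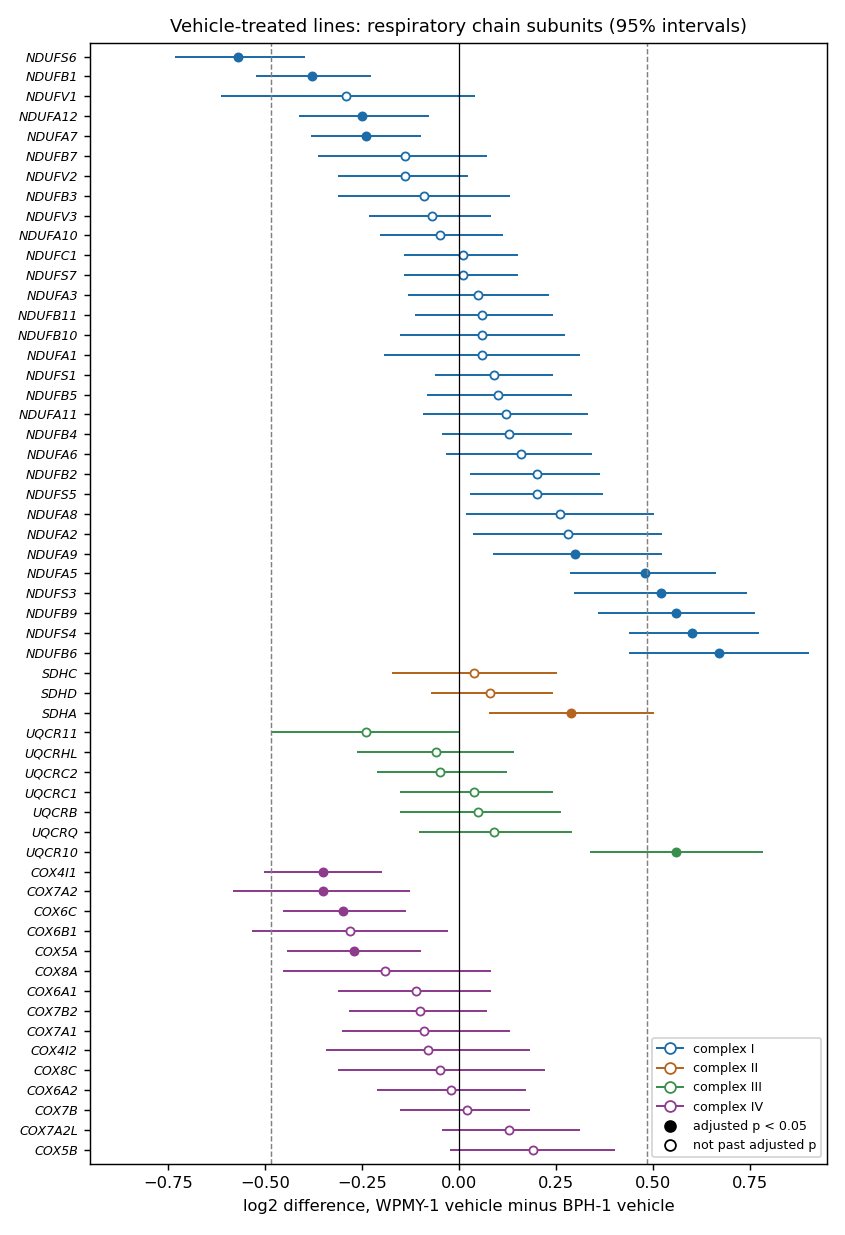
Log2 difference between vehicle-treated WPMY-1 and vehicle-treated BPH-1 cells for each member, sorted within its complex, 2 arrays per group. Lines are 95% intervals from limma, filled points passed an adjusted p of 0.05, and dashed lines mark 1.4-fold in either direction. The calls were 8 higher and 8 lower, or 15 higher and 3 lower when arrays were centred on their median (not drawn).

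Complex I held 10 of the 16 calls, 6 higher and 4 lower in WPMY-1 cells (12 and 2 after centring). This is 32.3% of its members, close to the 30.9% of all genes called. After centring, 85.7% of its calls were higher, against 67.3% of the calls over all genes. *NDUFB6*, an accessory subunit of the membrane arm, had the highest difference of all members. It read 7.19 and 7.02 in BPH-1 and 7.90 and 7.64 in WPMY-1 vehicle arrays, with no overlap, and was 1.59-fold higher in WPMY-1 cells (0.67 ± 0.10 SE, limma adjusted p = 0.0012). *NDUFS4*, an accessory subunit of the peripheral arm whose loss is known from Leigh syndrome, read 6.69 and 6.63 in BPH-1 and 7.32 and 7.21 in WPMY-1 cells. It was 1.52-fold higher (0.60 ± 0.073, limma adjusted p = 0.00033), and its Pao arrays, with 6.77 and 6.72 in BPH-1 and 7.29 and 7.20 in WPMY-1 cells, lay in the same order. *NDUFB9*, an accessory subunit of the membrane arm, read 6.22 and 5.97 in BPH-1 and 6.68 and 6.64 in WPMY-1 cells, which is 1.48-fold higher (0.56 ± 0.087, limma adjusted p = 0.0014). *NDUFS3*, a core subunit of the peripheral arm near the ubiquinone site, read 7.88 and 7.69 in BPH-1 and 8.28 and 8.33 in WPMY-1 cells, 1.43-fold higher (0.52 ± 0.098, limma adjusted p = 0.0039). For each of these genes the lowest WPMY-1 array, with or without Pao extract, was above the highest BPH-1 array.

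*NDUFA5* was 1.39-fold higher in vehicle-treated WPMY-1 than BPH-1 cells (0.48 ± 0.081, limma adjusted p = 0.0023). *NDUFA9*, an accessory subunit where the arms of complex I meet, read 8.65 and 8.62 in BPH-1 and 9.02 and 8.86 in WPMY-1 cells, and its difference of 0.30 (0.09 to 0.52; limma adjusted p = 0.038) lost the call after a further quantile normalization and without either BPH-1 vehicle array or repeat 1 of the WPMY-1 vehicle arrays (adjusted p up to 0.20). *NDUFS6*, a zinc-binding subunit of the peripheral arm, went the other way. It read 7.14 and 7.08 in BPH-1 and 6.52 and 6.57 in WPMY-1 cells, so that it was 1.48-fold lower in WPMY-1 cells (-0.57 ± 0.073, limma adjusted p = 0.0005). *NDUFB1*, a small accessory subunit of the membrane arm, read 8.27 and 8.28 in BPH-1 and 7.90 and 7.91 in WPMY-1 cells, 1.30-fold lower (-0.38 ± 0.063, limma adjusted p = 0.0023). The lower calls of *NDUFA12*, an accessory subunit of the peripheral arm (-0.25, limma adjusted p = 0.031), and *NDUFA7* (-0.24, 0.017) were lost after centring, in a fit on the 4 vehicle arrays alone, without either BPH-1 vehicle array, and without repeat 2 (*NDUFA12*) or repeat 1 (*NDUFA7*) of the WPMY-1 vehicle arrays, with adjusted p up to 0.18 and 0.11. Over all 31 members of complex I, 21 were above 0 and 10 below at baseline, with a median of 0.06 (24 above and 7 below after centring).

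In complex II, *SDHA* was called, 1 of 3 members (33.3%, against 30.9% of all genes). It read 8.04 and 8.14 in BPH-1 and 8.31 and 8.46 in WPMY-1 cells. Its difference of 0.29 (0.08 to 0.50; limma adjusted p = 0.041) was not past the test after a further quantile normalization, without either BPH-1 vehicle array or without repeat 2 of the WPMY-1 vehicle arrays (adjusted p up to 0.19). *SDHA* has pseudogene copies elsewhere in the genome, and whether its probes separate them was not tested. *SDHC* and *SDHD*, the membrane anchors, differed by 0.04 (-0.17 to 0.25) and 0.08 (-0.07 to 0.24). In complex III, 1 of 7 members was called (14.3%, against 30.9% of all genes). This was *UQCR10*, with 7.94 and 7.92 in BPH-1 and 8.43 and 8.55 in WPMY-1 cells and no overlap. It was 1.47-fold higher in WPMY-1 cells (0.56 ± 0.096, limma adjusted p = 0.0024), and the Pao arrays, 7.90 and 7.80 against 8.44 and 8.69, showed the same order. *UQCR11* had the lowest difference of complex III, -0.24 (-0.48 to 0.00; limma adjusted p = 0.13). The core proteins *UQCRC1* and *UQCRC2* differed by 0.04 (-0.15 to 0.24) and -0.05 (-0.21 to 0.12). *UQCRHL*, an intronless near-copy of the hinge protein gene *UQCRH*, had -0.06 (-0.26 to 0.14), but its probes may also read *UQCRH*, whose own probe set carries both symbols and was not analysed here.

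In complex IV, 12 of the 15 members were lower and 3 higher in WPMY-1 cells at baseline. Their median was -0.10, with all genes at -0.02. After centring 7 were lower and 8 higher, with a median of 0.01 (all genes 0.08). After a further quantile normalization 11 were lower and 4 higher, with a median of -0.09 (all genes 0.0). The calls were 0 higher and 4 lower as deposited and after quantile normalization, and 1 higher and 1 lower after centring. The 4 calls as deposited are 26.7% of the members of complex IV, against 30.9% of all genes (15.3% higher and 15.6% lower). *COX4I1*, the widely expressed isoform of subunit 4, was the lower call that held in all 13 alternative limma fits. It read 9.74 and 9.76 in BPH-1 and 9.36 and 9.43 in WPMY-1 cells, with no overlap, and was 1.27-fold lower in WPMY-1 cells (-0.35 ± 0.064, limma adjusted p = 0.0034). *COX7A2*, the widely expressed isoform of subunit 7a, read 8.08 and 8.08 in BPH-1 and 7.66 and 7.79 in WPMY-1 cells (-0.35 ± 0.096, limma adjusted p = 0.023). *COX6C*, with 5.39 and 5.27 against 5.06 and 5.01, had a difference of -0.30 (-0.45 to -0.14; limma adjusted p = 0.011). *COX5A*, a subunit on the matrix side, read 8.77 and 8.74 in BPH-1 and 8.42 and 8.56 in WPMY-1 cells, a difference of -0.27 (-0.44 to -0.10; limma adjusted p = 0.027). None of *COX7A2*, *COX6C* and *COX5A* passed the test after centring or without repeat 1 of the BPH-1 vehicle arrays. The calls of *COX7A2* and *COX5A* were also lost without repeat 2 of BPH-1 or repeat 1 of WPMY-1, that of *COX5A* in a fit on the 4 vehicle arrays alone, and that of *COX6C* without repeat 2 of WPMY-1. The highest adjusted p in these fits was 0.13 for *COX7A2*, 0.10 for *COX6C* and 0.15 for *COX5A*.

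None of the tissue isoforms of complex IV passed the baseline test, and differences between isoforms were not tested. *COX4I2* differed by -0.08 (-0.34 to 0.18) between the vehicle-treated lines, with 5.70 and 5.69 in BPH-1 and 5.44 and 5.79 in WPMY-1 cells. *COX6A2*, known from heart and muscle, differed by -0.02 (-0.21 to 0.17), and its widely expressed partner *COX6A1* by -0.11 (-0.31 to 0.08). *COX7A1* differed by -0.09 (-0.30 to 0.13), and *COX7A2L*, a factor of supercomplex assembly related to subunit 7a, by 0.13 (-0.04 to 0.31). *COX6B1*, a subunit facing the intermembrane space, had -0.28 (-0.53 to -0.03; limma adjusted p = 0.095), *COX8A*, the widely expressed isoform of subunit 8, had -0.19 (-0.45 to 0.08), and *COX7B* had 0.02 (-0.15 to 0.18). With Pao extract the differences of *COX4I1*, *COX6A1*, *COX6A2*, *COX6B1*, *COX7A2*, *COX7A2L*, *COX7B* and *COX8A* lay between -0.08 and 0.08 in both lines. *COXFA4*, formerly *NDUFA4* and known as a complex IV subunit, falls outside the symbols of the rule, and read 6.13 and 6.09 in BPH-1 and 6.46 and 6.46 in WPMY-1 vehicle arrays (0.35, limma adjusted p = 0.004), with -0.05 for Pao extract in each line.

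**Figure D3:**
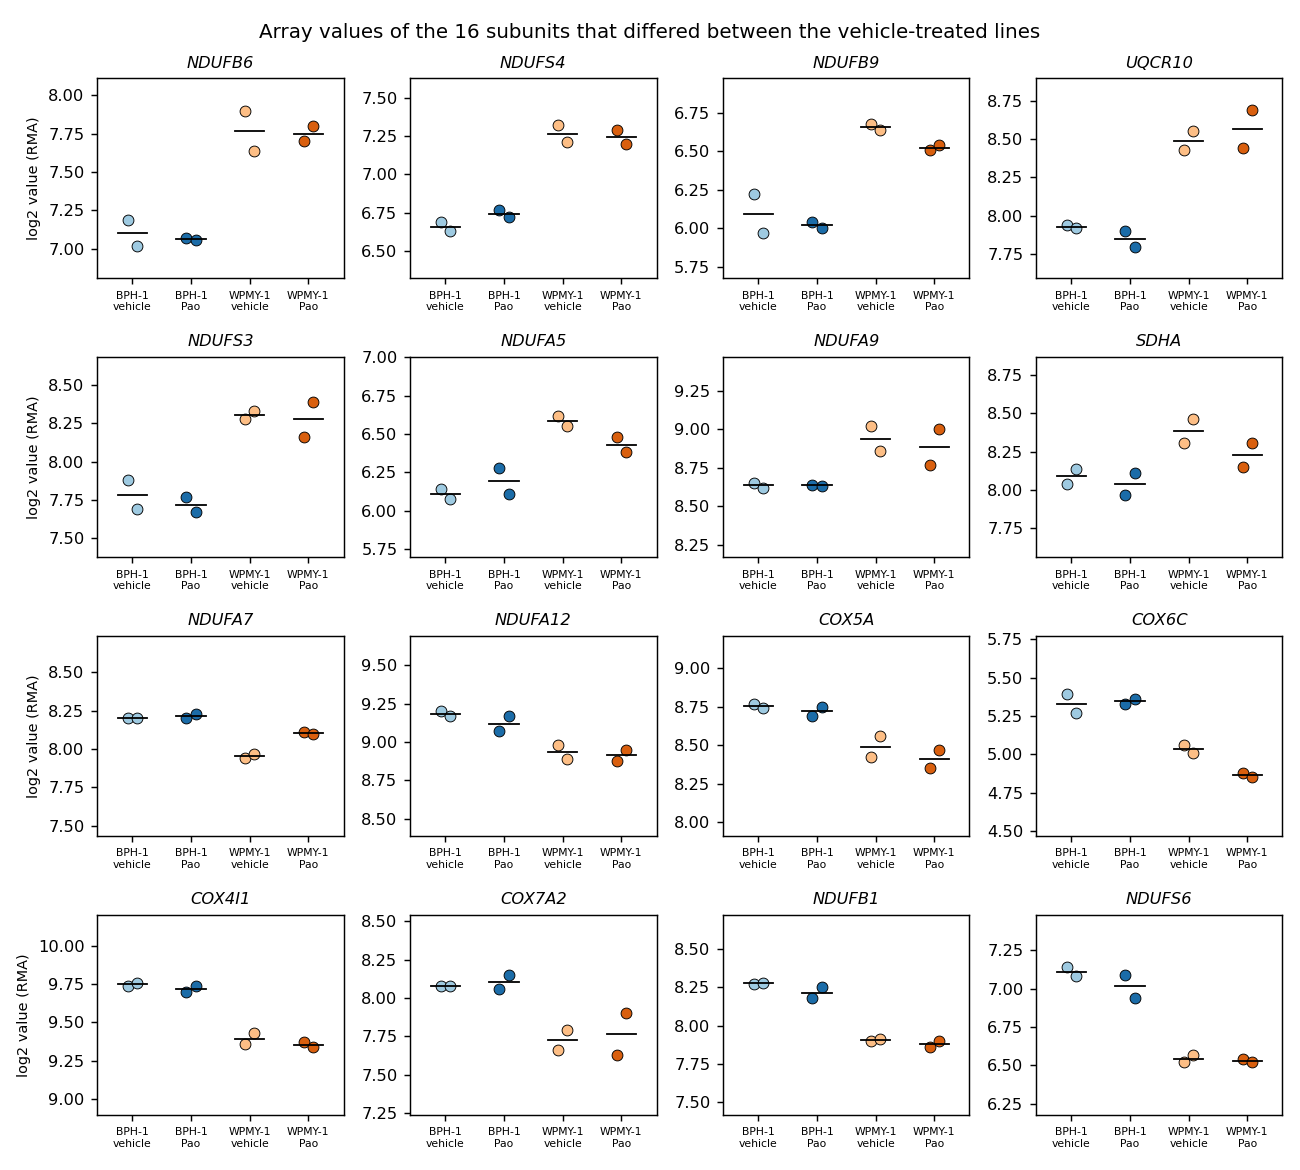
Log2 values of the 16 members that passed the test between the vehicle-treated lines, 1 panel per gene, ordered from the highest to the lowest difference. Points are single arrays (2 per group, repeat 1 on the left), horizontal bars are group means, and every panel spans the same range of 1.3 on the log2 scale. In each panel the vehicle arrays of the lines do not overlap.

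**Figure D4:**
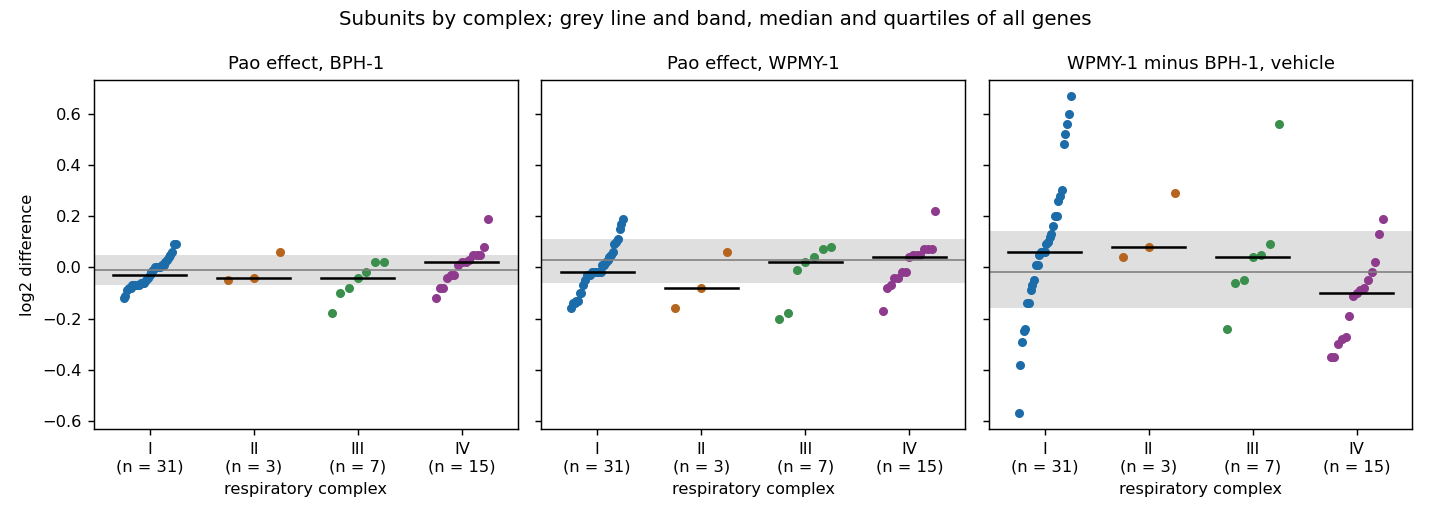
Log2 differences of the members by complex for Pao extract in BPH-1 cells, Pao extract in WPMY-1 cells and the vehicle-treated lines (WPMY-1 minus BPH-1). Points are genes, black bars are medians of a complex, and the grey line and band are the median and the quartiles of all genes. The baseline median of complex IV, -0.10 as drawn, was 0.01 when arrays were centred on their median. That of all genes was -0.02 as drawn and 0.08 after centring.

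Genes that work beside the subunits were counted in the same fits. At baseline limma's adjusted p called 30.9% of all genes (15.3% higher and 15.6% lower in WPMY-1 cells). After centring, 67.3% of the calls over all genes were higher, from 49.6%. Of the 17 measured genes of ATP synthase, which uses the proton gradient to make ATP, 0 passed limma's adjusted p with Pao extract in either line (unadjusted 0 and 1), with medians of -0.03 in both lines. At baseline 5 were higher and 5 lower in WPMY-1 cells (5 and 3 after centring), from -1.16 for *ATP5MG* (limma adjusted p = 3.3e-05) to 0.71 for *ATP5MJ* (0.00074), both small subunits of its membrane part. Of 44 assembly factors, 0 passed with Pao extract, with medians of -0.03 and -0.04 (all genes -0.01 and 0.03). At limma's unadjusted p, 3 were lower in BPH-1, and 2 were higher and 8 lower in WPMY-1 cells. Of 22465 genes, 510 were higher and 417 lower in BPH-1, and 1463 higher and 1049 lower in WPMY-1 cells (4.13% and 11.2% in either direction). Of the 44 factors, 7 were higher and 19 lower without overlap of the WPMY-1 arrays, where all genes had 27% and 16.6%. At baseline 7 were higher and 8 lower (11 and 3 after centring), among them *NUBPL*, an iron-sulfur factor for complex I (-0.77, limma adjusted p = 0.00016), *COX17*, a copper chaperone for complex IV (-0.76, 0.00013), and *NDUFAF5*, a complex I factor (0.58, 0.0088). At baseline the 15 genes of electron carriers, ubiquinone synthesis and cytochrome c1 had 3 higher and 3 lower (6 and 2 after centring). With Pao extract 0 of them passed (unadjusted 0 and 2). Cytochrome c (*CYCS*) differed by -0.06 and -0.09 and cytochrome c1 (*CYC1*) by -0.08 and -0.05, BPH-1 first and WPMY-1 second. Cytochrome c1 is itself a part of complex III, but its symbol falls outside the rule. *PDSS1*, which makes the side chain of ubiquinone, read 7.52 and 7.60 in vehicle-treated and 7.14 and 7.18 in Pao-treated WPMY-1 cells, a difference of -0.41 (-0.69 to -0.12; limma adjusted p = 0.35).

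Of 14 measured regulators of mitochondrial biogenesis, 0 passed with Pao extract (unadjusted 0 and 1), with medians of -0.04 and -0.05. The *NRF1* gene was also listed but had no probe set with that single symbol, so its own level was not analysed here. *PPARGC1A*, the coactivator PGC-1alpha, lay near background at 2.79 to 2.94 on all 8 arrays. *TFAM*, which packages mitochondrial DNA and activates its transcription, differed by -0.02 (-0.27 to 0.23) in BPH-1 and -0.20 (-0.45 to 0.05) in WPMY-1 cells. At baseline 2 regulators were higher and 3 lower in WPMY-1 cells (4 and 2 after centring), where 30.9% of all genes were called. *PPRC1*, a relative of *PPARGC1A*, was at 0.60 (limma adjusted p = 0.0045) and *TFB1M*, which modifies mitochondrial ribosomal RNA, at -0.71 (0.0013). The subunits encoded by mitochondrial DNA were not analysed here.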

How the data were processed

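RNA of 4 groups (line by treatment, 2 arrays each) was measured on Affymetrix human transcriptome arrays. The authors deposited log2 values after RMA (version not stated) for 67528 probe sets, and these were used with no further scaling. For the probe sets, a genome build was not given in the sources used here. Names came from the platform annotation, in which 23781 probe sets carry 1 symbol, 1543 several and 42204 are not listed. In 479 genes more than 1 probe set carried the symbol, and the brightest by its mean was kept, which left 22465 genes, 20299 of them matched to RefSeq (GRCh38.p14) by gene ID. Of the members, 55 have 1 probe set. A further 8 symbols, 1 of them a readthrough gene, sit on probe sets with several symbols, and these were not analysed here. RMA brings arrays to a common distribution, so a shift shared by most genes would not be seen, and the number of arrays limits the precision. Several members have processed pseudogenes, and whether their probes separate them was not tested.

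Group means were estimated on the 8 arrays together in limma 3.58.1 under R 4.3.3 (4 residual degrees of freedom, 8.24 after moderation). P-values were adjusted by Benjamini-Hochberg over 22465 genes, with a threshold of 0.05, and the 1.4-fold cutoff is the one used in the paper, where no test is named for it. With 2 arrays against 2, no exact permutation p can be under 0.333, so that test was not used. The code was tested on simulated data. The members and gene lists were chosen with earlier results of these data known. Named in full were up to 12 called members per comparison, the highest and lowest of each complex, and tissue isoforms. *COX5A*, *NDUFA12*, *NDUFA7*, *NDUFB4*, *SDHD*, *UQCRC1* and, at baseline, *UQCRC2* were named after their values were seen. Alternatives were a further quantile normalization, centring, a filter on dim genes, other probe set rules, a fit on 4 arrays, 2 variance models, the methods' t-test, a block for the replicate number, other call rules, and leaving out each array.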

Additional observations from a re-analysis of the deposited data

How the results depend on the processing

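No member passed the adjusted test for Pao extract, or for the difference of its effects, in any alternative limma fit. Before adjustment, the methods' t-test gave 1 higher and 1 lower member in BPH-1 and 2 higher and 3 lower in WPMY-1 cells, and limma gave 2 and 2 in WPMY-1 cells. At baseline, 8 members were higher and 8 lower. Centring gave 15 and 3 with a median of 0.14 (all genes 5141 and 2494), the methods' t-test after adjustment 0 and 0 (all genes 17 and 13), and 1.4-fold with no test 5 and 1. Leaving out 1 vehicle array at a time gave 6 to 7 higher and 3 to 6 lower, the fewest lower without repeat 1 of the BPH-1 arrays. The cause was not tested. With the replicate number as a block, 12 were higher and 10 lower at baseline (8794 of all genes called) and no member was called for Pao extract (223 of all genes in WPMY-1, 3 in BPH-1). The labels do not say what the number marks. Deviations of same-numbered arrays correlated across genes with r = 0.501 (BPH-1, vehicle with Pao), 0.429 (WPMY-1), 0.338 (vehicle arrays) and 0.198 (Pao arrays), as a hint of pairing. Members past no test often changed sign in some alternative, 27 in BPH-1, 32 in WPMY-1, 30 for the difference and 19 at baseline, none with a value over 0.15. With 2 arrays a group, differences inside the intervals given cannot be shown.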
